A study of Mus musculus with 6 samples.

Results

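The transcripts described here are those of 10 genes, comprising the microglia and macrophage genes Csf1r, Cx3cr1, C1qa, C1qb, C1qc, Aif1, Ptprc, Trem2 and Mrc1, together with the transcription factor gene Cebpa, which the study had paired with a microRNA. They were chosen by gene symbol, and every RefSeq transcript ID of these genes was kept. Of the 10 genes, 8 had an ID, 1 each, among the 23485 IDs in the count tables, and 7 of these were among the 13374 IDs tested. Aif1 and Trem2 were not analysed here. RNA-seq was performed on whole brains of wild-type C57BL/6 embryos at E15.5 (embryonic day). The groups were 3 female and 3 male samples, and RNA of more than 1 embryo was combined in every sample. A value is therefore an average over a pool, and p-values measure the spread between pools. In bulk RNA, fewer cells of a type and less RNA per cell cannot be told apart.

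Microglia are the resident macrophages of the brain. They descend from yolk sac progenitors that enter the neural tube early in development, and they depend on signalling through the receptor Csf1r to survive. Other macrophages sit in the meninges and along blood vessels and carry the scavenger receptor Mrc1 (CD206). Both populations express C1q, the complement component that starts the classical pathway and tags synapses and cell debris for uptake. Cebpa encodes C/EBP-alpha, a factor that drives myeloid lineage choice and also acts in liver, fat and several epithelia.

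The C1q genes and Mrc1 are typical macrophage genes, and the start regions of myeloid genes often carry purine-rich sites for the ETS factor PU.1. To show which letters lie there, the 250 bases upstream of the start were read from RefSeq promoters (GRCm38.p6, a later build than the NCBIM37 positions used for the transcripts below). A RefSeq promoter was present for 8 of the 10 genes, and Csf1r and C1qa had none. Those printed next are for the pair of C1q genes with an entry, for Mrc1 and for Cebpa. Cebpa had the largest sex difference in this group. Capitals mark AGGAAGT or its reverse complement ACTTCCT.
C1qb (chr4:136886201-136886450, minus strand): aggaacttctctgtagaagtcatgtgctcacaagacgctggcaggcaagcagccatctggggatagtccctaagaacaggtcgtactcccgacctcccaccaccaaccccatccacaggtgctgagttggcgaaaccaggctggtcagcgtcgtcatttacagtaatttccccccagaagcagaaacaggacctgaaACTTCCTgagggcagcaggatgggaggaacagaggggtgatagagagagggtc
C1qc (chr4:136892915-136893164, minus strand): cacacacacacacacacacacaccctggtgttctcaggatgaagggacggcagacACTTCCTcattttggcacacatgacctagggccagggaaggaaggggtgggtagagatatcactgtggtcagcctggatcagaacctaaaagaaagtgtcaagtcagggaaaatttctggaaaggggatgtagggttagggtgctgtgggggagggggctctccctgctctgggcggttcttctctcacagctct
Mrc1 (chr2:14229164-14229413, plus strand): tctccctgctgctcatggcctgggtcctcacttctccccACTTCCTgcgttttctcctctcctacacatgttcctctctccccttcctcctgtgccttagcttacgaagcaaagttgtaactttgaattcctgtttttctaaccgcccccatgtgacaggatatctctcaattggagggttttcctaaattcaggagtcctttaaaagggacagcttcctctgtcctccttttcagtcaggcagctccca
Cebpa (chr7:35119043-35119292, plus strand): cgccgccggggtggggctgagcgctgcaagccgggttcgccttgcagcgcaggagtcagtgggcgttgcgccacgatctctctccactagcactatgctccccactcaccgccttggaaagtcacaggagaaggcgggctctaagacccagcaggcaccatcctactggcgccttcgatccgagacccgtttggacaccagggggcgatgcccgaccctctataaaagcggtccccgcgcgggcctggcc
The ETS-type motif (AGGAAGT, both strands) occurred in 4 of the 8 genes, C1qb, C1qc, Mrc1 and Ptprc, against 8.8% of 27025 genes with a promoter in the table. The motif was absent from the microglia and macrophage genes Aif1, Cx3cr1 and Trem2, and from Cebpa. Its first base lay at position -53 in C1qb, -195 in C1qc and -211 in Mrc1, counted upstream from the start. The C/EBP motif TTGCGNAA, searched on both strands with no match in common with the ETS motif in these genes, occurred in 0 of the 8 genes and in 0.762% of all genes. These are matches of letters, and no binding was measured.

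The values are counts, shown also as CPM, which are counts relative to the sample's total after scaling by TMM (trimmed mean of M-values) factors. Totals ranged from 4908565 to 10294443 counts per sample, and a count of 0 allows up to 3 counts, or 0.291 to 0.611 CPM, by counting error alone. Samples of the same sex were not copies of each other (chi-square per degree of freedom 9.03 to 44.9 between pairs). Sex was compared with edgeR's quasi-likelihood F test, with Benjamini-Hochberg adjustment over all 13374 tested IDs. Positive log2 fold changes (log2FC) were higher in males. Of all tested IDs, 4 (0.0299%) were called at an adjusted p under 0.05, and 0 of the 7 IDs described here were among them. An unadjusted p under 0.05 was found for 1537 IDs (11.5%) and for 1 of the 7, Cebpa. The low counts of Ptprc kept it out of the test.

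**Figure D1:**
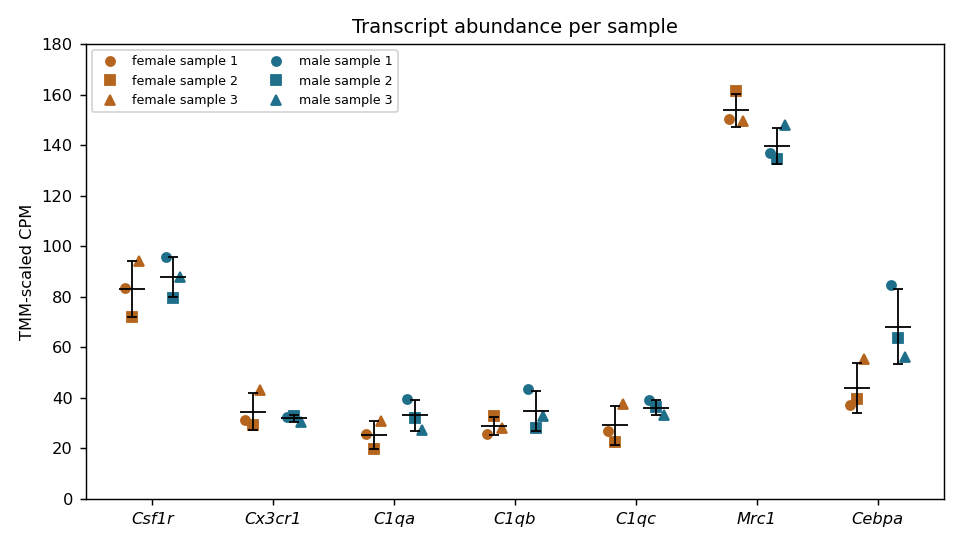
TMM-scaled CPM (linear y axis, from 0) of the 7 tested transcripts in each sample. Marker shape gives the sample number and colour the sex, and the black bar is the mean with its SD (n = 3). Mrc1 lay between 134.6 and 161.2 CPM, and Cebpa was higher in all male than in all female samples.

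Csf1r is the receptor for the growth factors Csf1 and Il34 and is required for microglia to survive. Its transcript (NM_001037859; NCBIM37 chromosome 18, 61265226 to 61291803, plus strand, 4701 nt) was covered in female samples 1, 2 and 3 by 516, 361 and 923 counts, and in the male samples, in the same order, by 925, 522 and 879. In CPM the female samples had 83.4, 71.9 and 94.1 and the male samples 95.6, 79.7 and 87.8, so the sexes overlapped. Females had a mean of 83.1 CPM ± 11.1 (SD, n = 3), against 87.7 CPM ± 7.98 (SD, n = 3) for males. The same order of samples is kept for the other transcripts. Here and below, positions are those of the gene and lengths those of its longest coding transcript in GENCODE, not of the RefSeq ID itself. The log2FC was 0.07 (SE 0.14, 95% interval -0.23 to 0.38) with an edgeR adjusted p of 0.869. Without female sample 2, the lowest, its log2FC was -0.02.

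Cx3cr1 is the receptor for the neuronal ligand Cx3cl1 (fractalkine) and a marker of parenchymal microglia. Its transcript (NM_009987; chromosome 9, 119957811 to 119977400, minus strand, 3729 nt) stood at 31.4, 29.3 and 43.1 CPM in the female samples. The male samples had 32.4, 33.0 and 30.3 CPM, within the female range. Female sample 3 was the highest and the male samples lay close together, with an SD of 1.42 against 7.48 in females. The log2FC was -0.13 (SE 0.18, 95% interval -0.51 to 0.25; edgeR adjusted p 0.809). Without female sample 3 it was 0.08 (edgeR adjusted p 0.865), and neither fit called it.

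Mrc1 is the mannose receptor, a marker of macrophages at brain borders that is also made by some endothelial cells. Its transcript (NM_008625; chromosome 2, 14151041 to 14253684, plus strand, 5352 nt) was covered by 930, 810 and 1468 counts in the female samples, and by 1322, 882 and 1480 in the male samples. The CPM were 150.3, 161.2 and 149.7 for females and 136.7, 134.6 and 147.9 for males. All female samples were above all male samples, with 149.7 CPM the lowest of the females and 147.9 the highest of the males. An absence of overlap with lower values in males occurred in 8.33% of all tested IDs. The log2FC was -0.14 (SE 0.12, 95% interval -0.39 to 0.11), with an edgeR adjusted p of 0.662. Within each sex, Mrc1 had a coefficient of variation (SD over mean) of 4.22% in females and 5.1% in males, above the 3.16% and 2.93% that counting error alone would give. Of 5 tested endothelial IDs, 3 had a negative and 2 a positive log2FC (median -0.17, or -0.07 with trends by transcript length and GC content removed), and 0 were called. Cdh5 (-0.26, SE 0.13), Kdr (-0.17, SE 0.12) and Flt1 (-0.23, SE 0.14) were lower in all male samples, with -0.27, -0.07 and -0.11 once length and GC trends were removed, while Cldn5, the one with an unadjusted p under 0.05, had 0.43 (SE 0.17, edgeR adjusted p 0.379, and 0.15 with length and GC trends removed) and Tie1 had 0.18 (SE 0.14, and 0.08 likewise). Flt1 and Cldn5 were named after their values were seen. Their part in the Mrc1 value was not tested. With length and GC trends removed, the log2FC of Mrc1 was 0.00.

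C1qa, C1qb and C1qc encode the A, B and C chains of C1q. They lie side by side within 18675 bases of chromosome 4 (NCBIM37, 136436044 to 136454718), all on the minus strand. C1qa (NM_007572; 136451832 to 136454718, 1040 nt) had a level of 25.7, 19.7 and 30.8 CPM in the female samples, and of 39.7, 32.1 and 27.3 CPM in the male samples. C1qb (NM_009777; 136436044 to 136442102, 1088 nt) had 25.7, 32.6 and 28.2 CPM in females and 43.4, 27.9 and 32.7 CPM in males. C1qc (NM_007574; 136445719 to 136448980, 1203 nt) had 26.8, 22.7 and 37.7 CPM in females and 39.0, 36.3 and 33.2 CPM in males. Male sample 1 was highest for each chain and the sexes overlapped for each.

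The log2FC was 0.37 (SE 0.20, 95% interval -0.07 to 0.80) for C1qa, 0.27 (SE 0.19, 95% interval -0.14 to 0.68) for C1qb and 0.30 (SE 0.19, 95% interval -0.12 to 0.72) for C1qc, with edgeR adjusted p-values of 0.499, 0.588 and 0.557. Smooth trends with transcript length and GC content were fitted to each sample's log2 CPM, taken relative to the mean over the 6 samples. The fit used IDs with both values and a mean of at least 10 counts, and 88.28% of tested IDs had both values. With those trends removed, the log2FC of the chains was 0.06, -0.02 and 0.05. Without male sample 1 it was 0.20, 0.07 and 0.24. Without female sample 2 it was 0.22, 0.36 and 0.15, and without female sample 3 it was 0.54, 0.26 and 0.55. Without male sample 2 the log2FC of C1qb was 0.41.

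The chains had similar transcript levels, and their lengths were close, from 1040 to 1203 nt. Of their summed CPM, not divided by length, C1qa made up 26.3% to 33.3%, C1qb 29.0% to 43.5% and C1qc 30.2% to 39.0% across the 6 samples, with no order of the chains that held in all samples. The sum came to 78.2, 75.1 and 96.8 CPM for the females, and to 122.1, 96.3 and 93.1 CPM for the males. Relative to Csf1r in the same sample, it was 0.938, 1.04 and 1.03 in females and 1.28, 1.21 and 1.06 in males, without overlap. This ratio was not tested, and no length or GC trend was removed from it. Cx3cr1 and Mrc1 relative to Csf1r overlapped between the sexes.

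Ptprc encodes CD45, a phosphatase on nucleated blood cells, which microglia carry at low level. Its ID (NM_001111316; chromosome 1, 139959438 to 140071882, minus strand, 5814 nt) had a count of 6, 4 and 2 in the female samples, and of 0, 1 and 6 in the male samples. Its mean level was 0.454 CPM, and the highest sample had 0.970 CPM. Ptprc has 5 coding transcripts in the GENCODE annotation, and its RefSeq entry lists 3 accessions, of which 1 was in the tables. Across all IDs with 5 or more coding transcripts the median level was 0.706 CPM, against 3.36 CPM for IDs with 1 coding transcript. How reads shared by several transcripts were counted is not given in the sources used here, so it is uncertain which share of the Ptprc reads this ID holds. The RefSeq entry of Cebpa lists 5 accessions, of which 1 had counts here, so the share held by the Cebpa ID is likewise uncertain.

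Levels of different genes were compared per kilobase of the longest coding transcript of each gene, which may differ from the length of the RefSeq ID. In mean CPM per kilobase, the order was C1qb 29.2, C1qa 28.1, Mrc1 27.4, C1qc 27.1, Cebpa 21.3, Csf1r 18.2 and Cx3cr1 8.91, with Ptprc at 0.078. The C1q chains and Mrc1 did not separate, since their values over the samples overlapped within 18.9 to 39.9 CPM per kilobase. Mrc1, at 25.2 to 30.1 CPM per kilobase, exceeded Csf1r, at 15.3 to 20.3, in every sample. Cebpa spanned 14.1 to 32.2 CPM per kilobase and overlapped with its neighbours. Cx3cr1, at 7.85 to 11.6 CPM per kilobase, lay below Csf1r in every sample.

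**Figure D2:**
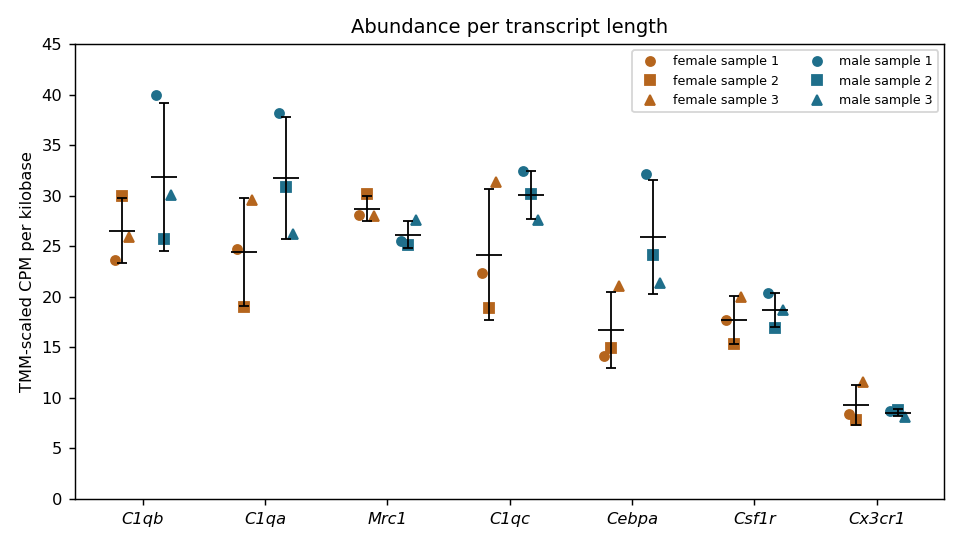
TMM-scaled CPM per kilobase of the gene's longest coding transcript (linear y axis, from 0) for the 7 tested transcripts, ordered by mean over 6 samples. The mean and SD per sex are in black (n = 3). The means of the C1q chains and Mrc1 lay between 27.1 and 29.2 CPM per kilobase, and Cx3cr1 reached at most 11.6.

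Cebpa had the largest sex difference of the 7 transcripts. It (NM_007678; chromosome 7, 35904312 to 35906945, plus strand, 2634 nt, GC 62.6%) was covered by 230, 198 and 543 counts in the female samples, and by 820, 416 and 564 in the male samples. The CPM were 37.2, 39.4 and 55.4 for females and 84.8, 63.5 and 56.3 for males. All male samples were above all female samples, but female sample 3 at 55.4 and male sample 3 at 56.3 CPM were nearly equal. An absence of overlap with higher values in males occurred in 8.73% of all tested IDs. Females had a mean of 44.0 CPM ± 9.92 (SD, n = 3), against 68.2 CPM ± 14.8 (SD, n = 3) for males, a 1.54-fold difference (95% interval 1.16 to 2.05).

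The log2FC of Cebpa was 0.62 (SE 0.19, 95% interval 0.21 to 1.04), with an unadjusted p of 0.00628 and an adjusted p of 0.341 in edgeR. The study picked Cebpa from these samples, so its difference is a description and not independent evidence. RUVr estimates factors of unwanted variation from model residuals. Cebpa passed the threshold when 2 such factors entered edgeR (adjusted p 0.0236), when 1 entered DESeq2 (0.0165) and when edgeR was run without a low-count filter (0.0201). Its log2FC was 0.43 without male sample 1 and 0.40 with the length and GC trends removed. Relative to Csf1r in the same sample, Cebpa was 0.446, 0.549 and 0.588 in females and 0.887, 0.797 and 0.642 in males.

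**Figure D3:**
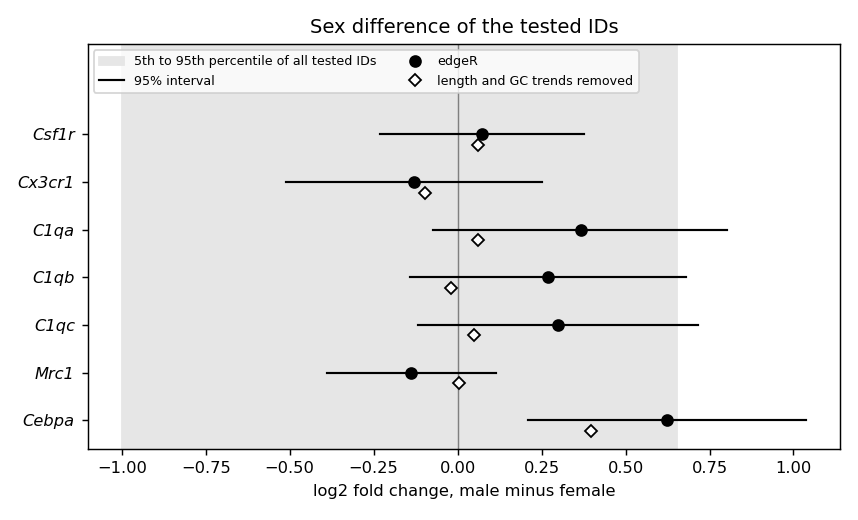
Log2 fold change (x axis, male minus female) of the 7 tested transcripts from edgeR (filled circles, with 95% intervals) and with length and GC trends removed (open diamonds). The grey band spans the 5th to 95th percentile of all tested IDs, -1.0 to 0.65, and Cebpa at 0.62 is the sole value whose interval excludes 0.

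The signs were mixed within the group. Of the 7 tested transcripts, 5 had a positive and 2 a negative log2FC, with a median of 0.27 against -0.01 for all tested IDs. With the length and GC trends removed the median was 0.05, and without male sample 1 it was 0.07. The summed CPM of the listed genes other than Cebpa came to 344.3, 338.2 and 383.9 for the females, and to 386.8, 343.7 and 359.6 for the males, so the sexes overlapped. The patterns across samples differed between genes. Male sample 1 was the highest for Csf1r, the 3 C1q chains and Cebpa, female sample 3 for Cx3cr1 and female sample 2 for Mrc1. Female sample 2 was the lowest for Csf1r, Cx3cr1, C1qa and C1qc.

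**Figure D4:**
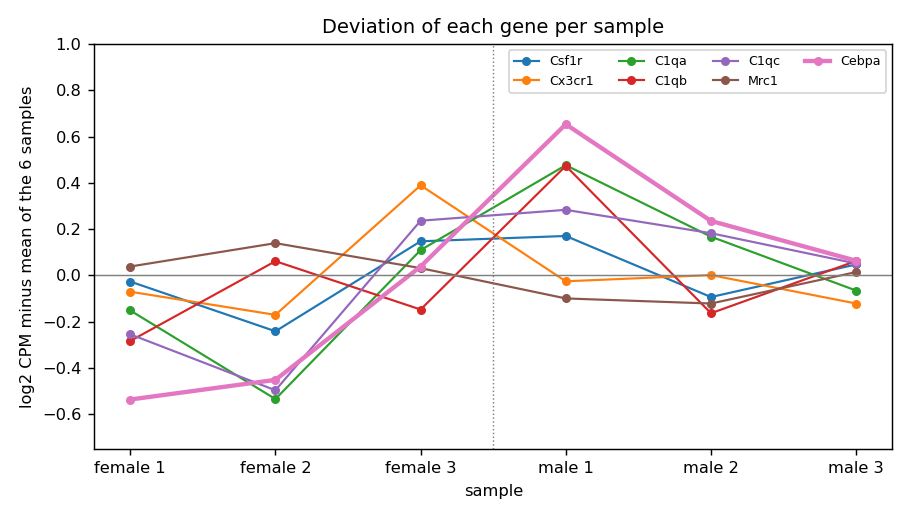
Log2 CPM of each tested transcript minus its mean over the 6 samples (y axis), by sample (x axis). Lines join the values of 1 gene and carry no order of samples. Cebpa went from -0.54 in female sample 1 to 0.65 in male sample 1, and Mrc1 stayed between -0.12 and 0.14.

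Other microglia genes gave a mixed picture. The 10 homeostatic microglia genes had 8 tested IDs, 4 with a positive and 4 with a negative log2FC (median 0.00), and 0 were called. Sall1, a transcription factor of microglia that neural progenitors also express, had 60.6, 65.1 and 56.8 CPM in females and 50.6, 50.2 and 45.7 CPM in males (log2FC -0.32, SE 0.14, edgeR adjusted p 0.400). All male samples lay below all female samples for Sall1. Tmem119, which microglia and bone-forming cells express, had 99.1, 84.4 and 120.0 CPM in females and 143.7, 82.4 and 147.3 CPM in males. P2ry12 and Siglech were not analysed here.

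Genes of macrophages at the brain's borders had 4 tested IDs, all with positive log2FC (median 0.22, or 0.12 with the trends removed), and 0 were called. Stab1 and Lyve1, receptors that endothelial cells share, had log2FC of 0.04 and 0.07. Cbr2, a carbonyl reductase, had 27.3, 36.8 and 35.4 CPM in females and 53.0, 37.7 and 44.2 CPM in males (log2FC 0.44, SE 0.18, edgeR adjusted p 0.385). With the trends removed its log2FC was 0.17. Of 9 tested pan-myeloid IDs, 6 had a positive log2FC (median 0.03) and 0 were called. Lyz2, which encodes lysozyme, had a log2FC of 0.43 (SE 0.19) and the sexes overlapped, while Laptm5 and Fcer1g had -0.16 and -0.25 (-0.30 and -0.49 with the trends removed, when the median was 0.12).

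Other transcription factors of the myeloid lineage had the opposite sign to Cebpa. All 4 tested IDs had a negative log2FC (median -0.17, or -0.17 with the trends removed) and 0 were called. Spi1, which encodes PU.1, had 10.5, 9.36 and 7.65 CPM in females and 7.65, 7.02 and 6.09 CPM in males (log2FC -0.40, SE 0.26, edgeR adjusted p 0.558). Maf, a factor of tissue macrophages that other cells also express, had a log2FC of -0.22. With the trends removed, Spi1 had -0.63 and Maf -0.08. Among the other members of the C/EBP family, 3 of 4 tested IDs had a positive log2FC (median 0.26) and 0 were called. Cebpb, which acts with Cebpa in myeloid and fat cells, had 10.7, 7.37 and 14.4 CPM in females and 21.3, 15.7 and 16.1 CPM in males, without overlap (log2FC 0.69, SE 0.25, edgeR adjusted p 0.364). With the trends removed its log2FC was 0.36. Cebpg and Cebpz, at 0.10 and -0.11, lay within 1 SE (0.12 and 0.13) of 0, and had 0.22 and -0.01 with the trends removed.

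Further genes of the pathways around microglia gave no call. Of the ligands and signalling partners, 1 of 4 tested IDs had a positive log2FC (median -0.25), Cx3cl1, which encodes the Cx3cr1 ligand, at 0.23 (SE 0.19). Tgfb1, a cytokine that maintains microglia, had -0.27 and Plcg2 had -0.23, and with the trends removed these were 0.11, -0.56 and -0.25. The other complement genes had 9 tested IDs, 5 of them positive (median 0.03). The regulator Serping1 had a log2FC of 0.13 (0.00 with the trends removed), and the lectin pathway protease gene Masp1 had 0.03 for its abundant ID NM_001359083 and -1.13 (SE 0.88) for NM_008555, which had 2 to 11 counts per sample. The genes of axon-tract and phagocytic microglia had 5 tested IDs, 2 of them positive (median -0.13), with Cd9 at 0.09, Lpl at -0.13 and Gpnmb at 0.30. With the trends removed these were 0.00, -0.03 and 0.35, and the medians of the partner, complement and axon-tract lists were -0.34, 0.00 and -0.03.

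Markers of other cell types were measured beside these results. Neutrophil and monocyte genes summed to 25.0 to 27.7 CPM in females and 24.2 to 31.7 CPM in males, and the mast cell genes Cpa3 (97.2 to 169.6 CPM) and Cma1 (71.0 to 125.6 CPM) overlapped between the sexes. Erythroid genes summed to 138.5 to 232.4 CPM in females and 98.4 to 199.5 CPM in males. Neuronal and neural progenitor genes, which define the labelled tissue, were also measured. Neuronal genes summed to 2891 to 3387 CPM in females and 3226 to 4109 CPM in males, and progenitor genes to 3135 to 3470 and 3215 to 3577 CPM. Of 7 tested neuronal IDs, 4 had a positive and 3 a negative log2FC (median 0.04), and of 7 progenitor IDs 5 had a positive and 2 a negative one (median 0.10). Map2, Stmn2, Nes and Notch1 had log2FC of -0.07, -0.02, -0.04 and -0.02, each within 1 SE of 0, and Syt1 had -0.63 (SE 0.86). At an unadjusted p under 0.05, 4 of their 14 tested IDs had higher values in males, as Cebpa did. These were Gap43 (log2FC 0.58, SE 0.18), Tubb3 (0.39, SE 0.14), Sox2 (0.39, SE 0.15) and Hes1 (0.37, SE 0.14), with edgeR adjusted p-values of 0.341 to 0.378, and the sexes did not overlap for Sox2 and Hes1. With the trends removed, Gap43 had 0.475, Tubb3 0.17, Sox2 0.323 and Hes1 0.25. Gap43 and Syt1, with Krt15, Epcam and Alb further on, were named after their values were seen. Genes of tissues outside the brain were also abundant. Fibroblast and meningeal genes summed to 18960 to 23390 CPM in females and 17570 to 25840 CPM in males, skeletal muscle genes to 3445 to 3953 and 3008 to 3838 CPM, and surface epithelium genes to 1358 to 1594 and 1107 to 2440 CPM. Male sample 1 held the highest surface epithelium sum and male sample 2 the lowest. Of 7 tested surface epithelium IDs, 6 had a positive and 1 a negative log2FC (median 0.26, or 0.15 with the trends removed), and 0 were called. Krt15, a keratin gene of basal cells, had a log2FC of 0.51 (SE 0.18, edgeR adjusted p 0.352, and 0.33 with the trends removed), and the sexes overlapped for it but not for the epithelial adhesion gene Epcam (0.26, SE 0.14, and 0.15 with the trends removed). Of the genes of liver and fat, tissues in which Cebpa also acts, Ttr, which the choroid plexus makes in the brain, had a log2FC of 0.38 (SE 0.13, edgeR adjusted p 0.351). Ttr made up most of the summed CPM of the liver and fat genes, and without it the sums overlapped, with 33.9, 46.6 and 36.3 CPM in females and 60.5, 37.4 and 39.0 CPM in males. Of the 6 tested liver and fat IDs, 5 had a positive and 1 a negative log2FC (median 0.18, or 0.07 with the trends removed), and 0 were called. The fat genes Adipoq and Fabp4 had log2FC of 0.50 (SE 0.34) and 0.28 (SE 0.22), or 0.40 and 0.14 with the trends removed, and the liver gene Alb had -0.79 (SE 0.45). The part of these cell types and tissues in the Cebpa and C1q values was not tested. Over the 18 other lists, 112 IDs were tested and 0 were called. In them, 13 (11.6%) had an unadjusted p under 0.05, against 11.5% of all tested IDs. By direction, 11 (9.82% of the 112) were higher and 2 (1.79%) lower in males, against 6.68% and 4.82% of all tested IDs.

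**Figure D5:**
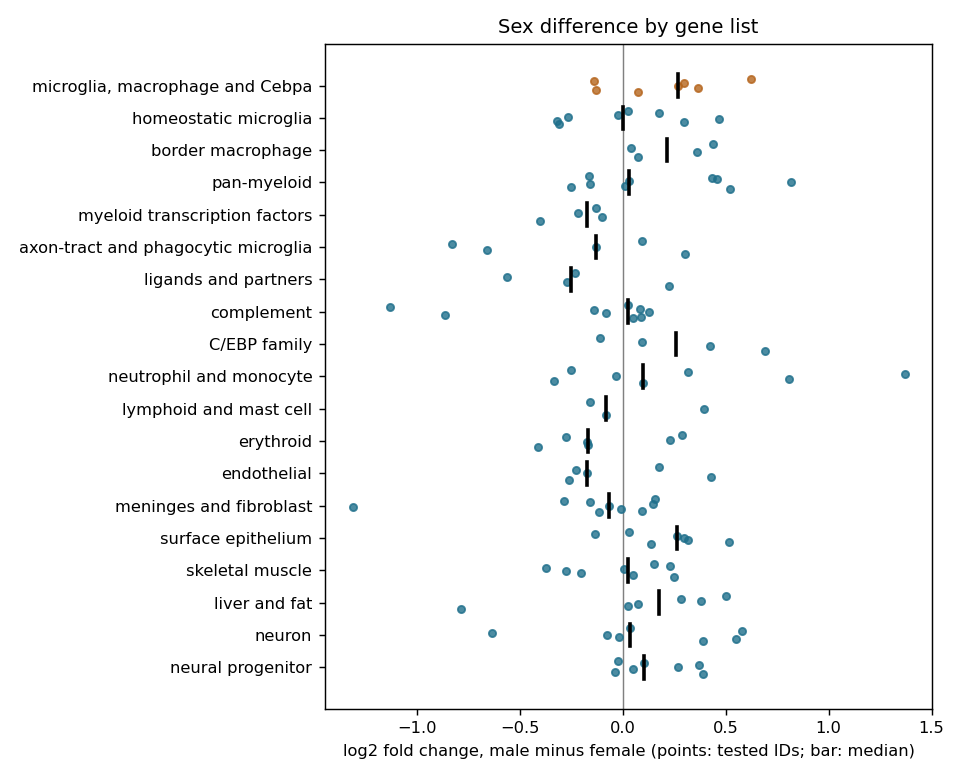
Log2 fold change (x axis, male minus female) of every tested ID by gene list (rows), with the median as a black bar. The microglia, macrophage and Cebpa transcripts (brown) had a median of 0.27, and the 4 myeloid transcription factors lay below 0.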

How the data were processed

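RNA-seq counts of 3 female and 3 male pooled whole-brain samples were used. The deposited values are raw counts for each RefSeq transcript ID, in a separate table for each sample. Per the labels and the submitters' processing notes, the authors used Trimmomatic 0.32, TopHat2 2.1.1, Cufflinks 2.2.1 and featureCounts 1.5.1 with mm9 (NCBIM37). The treatment of strand and of multiply assigned reads is not given in the sources used here. Symbols came from a RefSeq gene table (GRCm38.p6), which named 23359 IDs (99.46%), and positions and lengths from GENCODE of NCBIM37 (21320 IDs).

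IDs with at least 10 counts in at least 1 sample were tested in R 4.3.3 with edgeR 4.0.16 (quasi-likelihood F test, TMM, sex as the sole term, Benjamini-Hochberg), checked on simulated counts. DESeq2 1.42.0, RUVr factors (singular vectors of edgeR deviance residuals), other filters and scalings, a replicate block, leaving out each sample and summing IDs per symbol were alternatives. Removal of length and GC trends (splines with 4 degrees of freedom, values for 88.28% of tested IDs) was added after seeing the data. Tables and plots used Python 3.11.15 (pandas 2.3.3, matplotlib 3.10.9). Besides the 10 genes, up to 3 tested IDs per list with the highest mean CPM were named, with up to 3 at an unadjusted p under 0.05 and no overlap between the sexes. For lists of tissues outside the myeloid lineage, sums are given in place of most of these, and a few genes that this rule names are not reported here. The genes and lists were chosen with earlier results of these data known. The labels give no batch, so no comparison within batches was made.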

Additional observations from a re-analysis of the deposited data

How the results depend on the processing

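Over 18 alternatives, 0 of the tested IDs described here other than Cebpa were called. Cebpa, and thus 1 of the 7, was called in edgeR without a low-count filter (log2FC 0.65) or given 2 RUVr factors (0.61), and in DESeq2 given 1 RUVr factor (0.59), while DESeq2 alone gave an adjusted p of 0.0854. Its log2FC ranged from 0.40 to 0.84 and its adjusted p from 0.0165 to 0.809. Directions turned for Csf1r (-0.022 without female sample 2, and up to 0.183 as each sample was left out), Cx3cr1 (0.078 without female sample 3, and down to -0.235 likewise), and, with length and GC trends removed, C1qb (-0.019) and Mrc1 (0.003). The median log2FC was 0.05 with those trends removed and 0.07 to 0.32 when each sample was left out. The cause of these changes was not tested. Of all tested IDs, 4 were called in edgeR, against 107 with DESeq2 (72 higher in males, 35 lower), 276 without a filter (191 and 85), 1 with at least 10 counts in every sample, 36 and 483 with edgeR and 1 or 2 RUVr factors (13 and 23, then 315 and 168), 370 when DESeq2 was given 1 such factor (188 and 182), and 4 to 51 when each sample was left out (51 for female sample 3, and 12, 8 and 7 for male samples 1, 2 and 3). Among IDs of the other lists, the unfiltered fit called 2, edgeR given 2 RUVr factors 3, and DESeq2 given 1 factor 4. Replicate numbers shared only a number: same-numbered samples had correlations of -0.315, -0.034 and -0.266, and the replicate block gave 4 calls, 0 of them among the 7, with a median log2FC of 0.25. Totals of 4908565 to 10294443 counts limit the precision of low transcripts such as Ptprc.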
